A study of Rattus norvegicus with 9 samples.

Results

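Neutrophil granule and cytosolic genes were followed by the stage of maturation at which the cells make their products. The 10 genes were chosen by symbol, and all 10 were among the 22589 genes listed for each rat. They comprised 4 primary granule genes (Mpo, Elane, Prtn3 and Ctsg), 4 later granule genes (Camp, Ltf, Lcn2 and Ngp) and 2 cytosolic genes (S100a8 and S100a9). RNA-seq had been carried out on the left tibias of 9 female Sprague-Dawley rats, 3 in each group, which had been received at 9 weeks of age and operated on after 1 week of adaptation. The RE/Ovx rats had both ovaries removed and, from week 13, climbed a ladder with a load for 12 weeks. The NE/Ovx rats had both ovaries removed and did not exercise, and the Sham rats kept their ovaries, lost a small piece of fat in the operation and did not exercise. The bones had been cleared of skin and muscle but not of marrow in any step the sources describe, so a library mixes the RNA of marrow with that of bone and cartilage.

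Neutrophils mature in the bone marrow, and they fill their granules in a fixed order. Promyelocytes make the primary (azurophil) granule proteins, myelocytes and metamyelocytes make the specific granule proteins, and band and segmented cells make gelatinase granules. The calcium-binding pair S100a8 and S100a9 builds up in the cytosol through the later stages, so that the RNA of primary granule genes marks early cells and that of the other genes marks older ones. In bulk tissue, fewer cells of a type and less RNA per cell cannot be told apart.

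The counts of a library summed to between 12967456 and 14946389 in the RE/Ovx group, between 13568808 and 16671533 in the NE/Ovx group and between 12297992 and 15123988 in the Sham group. Levels are given as CPM, the reads of a gene scaled to the size of its library by TMM, or as FPKM, which also divides by gene length and so allows genes to be compared. Of the 10 genes, 9 had enough reads to be tested. The 10 genes together took 0.379 to 0.614% of all counts in RE/Ovx rats, 0.509 to 0.588% in NE/Ovx rats and 0.656 to 1.15% in Sham rats, and the Sham range lay above both others. By FPKM the cytosolic genes led in every group, with means of 2761 ± 599 in the RE/Ovx group, 3079 ± 182 in the NE/Ovx group and 5423 ± 1553 FPKM in the Sham group for S100a9 (SD, n = 3 each). Among the granule genes, the FPKM means were highest for Camp, at 711 ± 140 in RE/Ovx rats, 843 ± 53.2 in NE/Ovx rats and 1332 ± 162 in Sham rats (SD, n = 3 each). The 10 genes were well detected in these tibias, with 1 exception. Ltf, which encodes lactoferrin and is a defining gene of specific granules, had 5, 7 and 7 reads in RE/Ovx rats, 17, 6 and 7 reads in NE/Ovx rats and 1, 2 and 5 reads in Sham rats. It was too low to be tested, although other specific granule genes were well detected, and the reason was not tested.

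Mpo, myeloperoxidase, which makes hypochlorous acid in the phagosome, was at 769, 614 and 936 CPM in RE/Ovx rats 3, 5 and 8, at 896, 819 and 941 CPM in NE/Ovx rats 6, 8 and 9, and at 848, 1504 and 1154 CPM in Sham rats 12, 7 and 8. Sham rats 7 and 8 stood above all 6 ovariectomized rats, and Sham rat 12 stood among them. Elane, neutrophil elastase, was at 84.8, 55.9 and 113 CPM in RE/Ovx rats, at 83.6, 85.5 and 125 CPM in NE/Ovx rats and at 71.1, 200 and 134 CPM in Sham rats, in the same order of rats. The groups overlapped, since the lowest Sham rat was below 5 of the 6 ovariectomized rats. Prtn3, proteinase 3, a serine protease encoded next to Elane in the GRCr8 assembly with 0 protein-coding genes between them, was at 58.7, 33.4 and 56.4 CPM in RE/Ovx rats, at 67.3, 60.3 and 67.7 CPM in NE/Ovx rats and at 54.5, 110 and 83.3 CPM in Sham rats. Its RE/Ovx values lay below its NE/Ovx values without overlap. Ctsg, cathepsin G, another serine protease of these granules, was at 174, 126 and 225 CPM in RE/Ovx rats, at 156, 151 and 231 CPM in NE/Ovx rats and at 168, 430 and 271 CPM in Sham rats, again with Sham rat 12 among the ovariectomized rats.

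Of the 3 tested later granule genes, Camp separated every pair of groups, Ngp only RE/Ovx from Sham, and Lcn2 none. Camp, the cathelicidin antimicrobial peptide, was at 461, 319 and 446 CPM in RE/Ovx rats, at 528, 467 and 483 CPM in NE/Ovx rats and at 705, 914 and 783 CPM in Sham rats. Every ovariectomized rat was below every Sham rat, and every RE/Ovx rat was below every NE/Ovx rat. Lcn2, lipocalin 2, which binds bacterial siderophores, was at 153, 124 and 196 CPM in RE/Ovx rats, at 188, 175 and 192 CPM in NE/Ovx rats and at 184, 342 and 256 CPM in Sham rats, where rat 12 alone overlapped with the other groups. Ngp, neutrophilic granule protein, was at 676, 391 and 742 CPM in RE/Ovx rats, at 802, 567 and 608 CPM in NE/Ovx rats and at 888, 1200 and 793 CPM in Sham rats. All RE/Ovx rats were below all Sham rats, while NE/Ovx rat 6 was just above the lowest Sham rat.

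The cytosolic genes showed the same separation from the Sham group as Camp. S100a8 was at 1134, 855 and 1320 CPM in RE/Ovx rats, at 1239, 1051 and 1426 CPM in NE/Ovx rats and at 1470, 3016 and 2111 CPM in Sham rats. S100a9, its partner in calprotectin, was at 1611, 1232 and 1859 CPM in RE/Ovx rats, at 1834, 1637 and 1869 CPM in NE/Ovx rats and at 2329, 4233 and 3109 CPM in Sham rats. Both genes were lower in all 6 ovariectomized rats than in any Sham rat, and the RE/Ovx and NE/Ovx values overlapped.

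**Figure D1:**
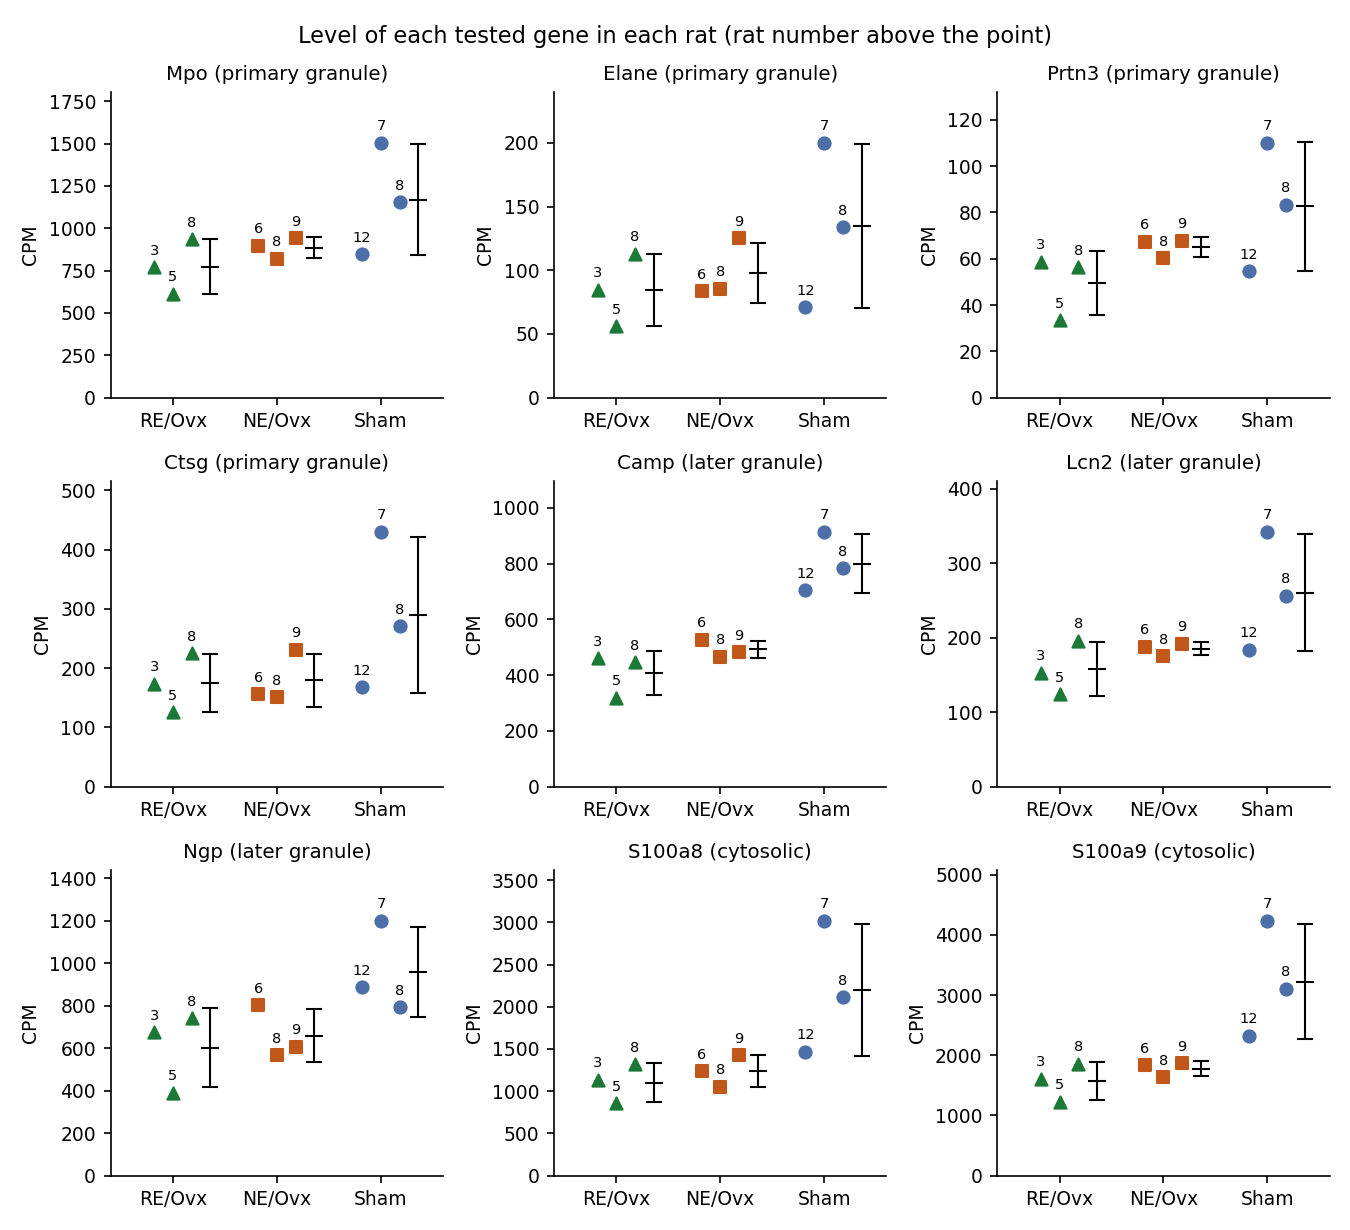
CPM of the 9 tested genes in each rat, with the RE/Ovx, NE/Ovx and Sham groups from left to right, rat numbers above the points, and the mean ± SD of 3 rats as a black bar to the right of each group. Camp, S100a8 and S100a9 were lower in all 6 ovariectomized rats than in every Sham rat, and Sham rat 7 had the highest value of every gene.

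The genes moved together from rat to rat. Within the Sham group rat 7 had the highest value of all 9 genes and rat 12 the lowest of 8. Within the RE/Ovx group rat 5 had the lowest value of all 9 genes and rat 8 the highest of 7, and within the NE/Ovx group rat 8 had the lowest of 8 and rat 9 the highest of 7. These rats also differed in depth. The total count was 12967456 in RE/Ovx rat 5, the lowest of its group, 16671533 in NE/Ovx rat 9, the highest of its group, and 15123988 in Sham rat 7 against 12297992 in Sham rat 12, the highest and lowest of that group. NE/Ovx rat 8, with the lowest value of 8 genes, was not the shallowest of its group (14233832, against 13568808 in NE/Ovx rat 6). The part of depth in the spread was not tested. The coefficient of variation in the Sham group ran from 13.2% for Camp to 47.9% for Elane.

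Ovariectomy without exercise was compared with the sham operation first. All 9 tested genes were lower on average in NE/Ovx than in Sham tibias, but none passed the adjusted threshold (Benjamini-Hochberg adjusted p under 0.05 over 14520 tested genes, edgeR), where 1.23% of all genes passed in either direction and 0.200% passed as lower. At an unadjusted p under 0.05, 4 of the 9 passed as lower in edgeR, against 8.57% of all genes. After adjustment, DESeq2 called 3 as lower, against 2.32% of all genes, and limma on FPKM 0, against 0.110%. At the thresholds the study used for lower genes (fold change below 0.83 at an unadjusted p under 0.05) with the p of edgeR, Camp, Lcn2, S100a8 and S100a9 were lower, 4 of 9 genes against 6.52% of all genes. With the p of DESeq2, the tool of the study, Mpo, Ctsg and Ngp were lower as well, 7 of 9 genes against 7.15% of all genes. The groups did not overlap for Camp, S100a8 and S100a9, 3 of 9 genes against 11.4% of all genes that were lower without overlap. Among all tested genes, 49.6% had a negative log2 fold change (log2FC).

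The size of the difference from the Sham group depended on single rats. The median log2 fold change for NE/Ovx against Sham was -0.43 over the 4 primary granule genes, -0.54 over the 3 tested later granule genes and -0.84 over the 2 cytosolic genes, against 0.00 over all genes tested. Without Sham rat 7 the primary granule median was -0.14, and without Sham rat 12 it was -0.69. The later granule median ran from -0.37 to -0.71 and the cytosolic median from -0.59 to -1.06 when 1 rat was left out. Differences between the classes were not tested. S100a9 had a mean of 1780 ± 125 CPM in NE/Ovx tibias, against 3223 ± 957 CPM in Sham tibias (SD, n = 3 each), a log2FC of -0.86 ± 0.22 SE (95% interval -1.34 to -0.37, edgeR adjusted p = 0.0794). Camp, at 493 ± 31.7 CPM in NE/Ovx tibias, against 801 ± 105 CPM in Sham tibias, had the smallest adjusted p of the 9 (log2FC -0.70 ± 0.15 SE, edgeR adjusted p = 0.0577). For S100a8 the log2 fold change was -0.83 (95% interval -1.39 to -0.27, edgeR adjusted p = 0.117). For the primary granule gene Mpo it was -0.40 (95% interval -0.86 to 0.06, edgeR adjusted p = 0.307), and for Ctsg -0.69 with a wide interval of -1.41 to 0.02. The intervals of Elane, from -1.24 to 0.32, and Prtn3, from -0.91 to 0.22, held 0 as well. Without 1 rat, the log2 fold change of Elane ran from -0.78 to -0.08 and that of Ctsg from -0.98 to -0.31. Lcn2 and Ngp had log2 fold changes of -0.50 and -0.54.

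Ovariectomy followed by resistance exercise was compared with the same 3 Sham rats. Camp, S100a8 and S100a9 fell in RE/Ovx relative to Sham tibias and passed the adjusted threshold, 3 of 9 genes, where 8.06% of all genes passed in either direction and 3.06% passed as lower. Camp was at 409 ± 78 CPM in RE/Ovx tibias, against 801 ± 105 CPM in Sham tibias (SD, n = 3 each), 0.51 of the Sham level (log2FC -0.97 ± 0.15 SE, edgeR adjusted p = 0.0117). S100a9 was at 0.486 of the Sham level, with 1567 ± 316 CPM in RE/Ovx tibias, against 3223 ± 957 CPM in Sham tibias (log2FC -1.04 ± 0.22 SE, edgeR adjusted p = 0.0229). S100a8 was at 0.502 of the Sham level (log2FC -1.0 ± 0.25 SE, edgeR adjusted p = 0.0411).

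The other 6 tested genes did not pass in RE/Ovx relative to Sham tibias. Lcn2 came nearest, with a log2FC of -0.73 (95% interval -1.21 to -0.25, edgeR adjusted p = 0.0659), and Ngp had one of -0.67 (95% interval -1.22 to -0.13). The primary granule genes had log2 fold changes of -0.60 (Mpo, 95% interval -1.06 to -0.13), -0.67 (Elane, -1.46 to 0.11), -0.74 (Prtn3, -1.31 to -0.17) and -0.73 (Ctsg, -1.45 to -0.01), with adjusted p between 0.104 and 0.266 from edgeR. Every tested gene except Elane was lower at an unadjusted p under 0.05 in edgeR, against 11.1% of all genes, and at the study's thresholds, against 9.17% of all genes (9.59% with the p of DESeq2, which named the same 8). After adjustment, DESeq2 called 7 of the 9 as lower, against 5.48% of all genes, and limma 1, Camp, against 1.69%. The groups did not overlap for 4 of the 9 (Camp, Ngp, S100a8 and S100a9), against 13% of all genes. The class medians were -0.70 for the primary granule, -0.73 for the later granule and -1.02 for the cytosolic genes, against -0.01 over all genes tested. Without 1 rat they ran from -0.36 (without Sham rat 7) to -0.98, from -0.49 to -0.93 and from -0.75 to -1.23.

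The calls for the cytosolic genes depended on single rats and on the test. Camp passed in RE/Ovx relative to Sham tibias whichever of the 6 rats was left out (adjusted p from 0.00728 to 0.0462, edgeR). S100a9 passed in 3 of these 6 fits and was lost without RE/Ovx rat 5, RE/Ovx rat 8 or Sham rat 7, where adjusted p reached 0.0941 in edgeR. S100a8 passed in 1 of 6, without Sham rat 12. With the 2 groups alone, adjusted p was 0.0313 for Camp, 0.0751 for S100a8 and 0.0537 for S100a9 in edgeR, and with limma it was 0.0426, 0.264 and 0.252, so that these tests called Camp alone. Without Sham rat 12, 6 of the 9 genes passed, adding Mpo, Prtn3 and Lcn2, against 2.34% of all genes as lower. Without Sham rat 7, RE/Ovx rat 5 or RE/Ovx rat 8 only Camp passed. In the same order, 1.91%, 0.163% and 0.246% of all genes passed as lower there, against 3.06% with every rat kept. All 9 log2 fold changes against the Sham group stayed negative in every fit without 1 rat, with the 2 groups alone and with limma. This held in both ovariectomized groups.

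The direct comparison of the 2 ovariectomized groups asked whether exercise moved these genes. It used the same 6 ovariectomized rats as the comparisons with Sham. None of the 9 passed for RE/Ovx against NE/Ovx, where 0% of all genes passed in either direction and 0% as lower in edgeR. At an unadjusted p under 0.05 also 0 of the 9 passed in edgeR, where 3.57% of all genes passed as lower. DESeq2 and limma called 0 of the 9, and 0.00689% and 0% of all genes as lower. All 9 log2 fold changes were negative, from -0.04 for Ctsg to -0.39 for Prtn3, but those of Elane, Ctsg and Ngp turned positive when single rats were left out. No member passed the study's thresholds, which 3.15% of all genes passed as lower (3.18% with the p of DESeq2, also without a member). The study reported more lower genes for this comparison too. Prtn3 and Camp were lower without overlap, 2 of 9 genes against 6.84% of all genes. For Camp the interval of the log2 fold change ran from -0.61 to 0.07, with 409 ± 78 CPM in RE/Ovx tibias, against 493 ± 31.7 CPM in NE/Ovx tibias, and for S100a9 it ran from -0.66 to 0.30. The class medians were -0.20, -0.23 and -0.18 for the primary granule, later granule and cytosolic genes, against 0.01 over all genes. Without RE/Ovx rat 5 they were -0.02, -0.08 and -0.02, and without RE/Ovx rat 8 they were -0.42, -0.34 and -0.33. Since Camp, S100a8 and S100a9 passed against the Sham group with exercise and not without it, it is this comparison that tests the difference, and it was not detected with 3 rats a group.

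**Figure D2:**
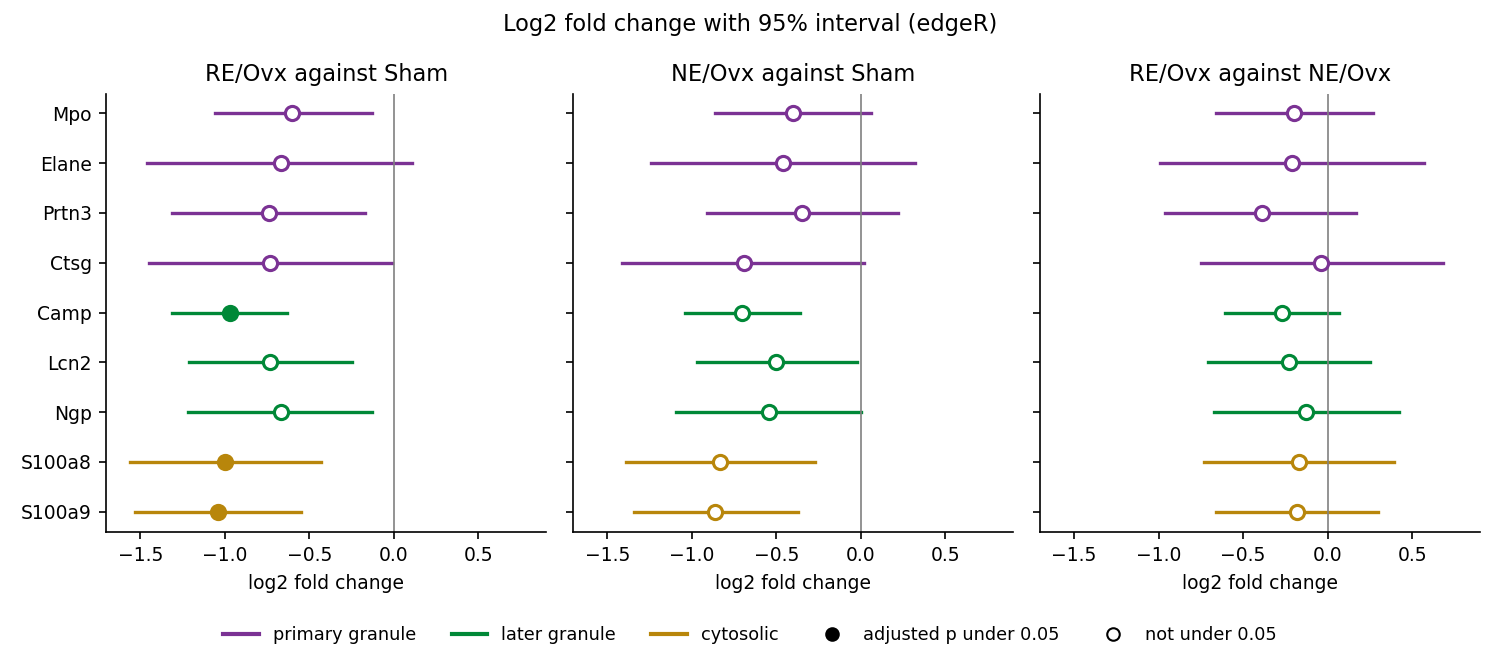
Log2 fold change (horizontal axis) of the 9 tested genes with 95% intervals from edgeR, in 1 panel per comparison, coloured by granule class, with filled points where the adjusted p was under 0.05. All points lie left of 0, and those of Camp, S100a8 and S100a9 are filled for RE/Ovx against Sham only.

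The classes were then set beside each other within each rat. A ratio of 2 genes in the same library does not depend on how the library was scaled, and the ratios below were looked at after the levels were known and carry no test. Mpo over S100a9 was 0.478, 0.499 and 0.504 in RE/Ovx rats 3, 5 and 8, 0.489, 0.5 and 0.504 in NE/Ovx rats 6, 8 and 9, and 0.364, 0.355 and 0.371 in Sham rats 12, 7 and 8. The mean ratio was 0.494 ± 0.0138 in the RE/Ovx group, 0.498 ± 0.00777 in the NE/Ovx group and 0.363 ± 0.00802 in the Sham group (SD, n = 3 each). The 6 ovariectomized rats held more Mpo RNA for each S100a9 RNA than any Sham rat, and the ratio differed little within a group even though Mpo itself ran from 848 to 1504 CPM among the Sham rats.

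All pairs of the 9 genes were compared in the same way. Of 8 pairs of a primary granule gene over a cytosolic gene, 3 were higher in all 6 ovariectomized rats than in all Sham rats and none was lower (Mpo over S100a8, Mpo over S100a9 and Prtn3 over S100a9). Of 12 pairs of a primary over a later granule gene, 2 were higher without overlap (Mpo over Camp and Mpo over Lcn2), and of 6 pairs of a later granule gene over a cytosolic gene, 2 were (Lcn2 over S100a8 and Lcn2 over S100a9). Within a class, all 6 primary granule pairs, all 3 later granule pairs and the 1 cytosolic pair overlapped. Pairs share genes, so these counts are not independent. The share of pairs of all genes that separate in this way was not computed. The counts therefore do not show whether the granule classes stand out. Mpo over Camp was 1.67 to 2.1 in RE/Ovx rats, 1.7 to 1.95 in NE/Ovx rats and 1.2 to 1.65 in Sham rats, so that its lowest ovariectomized rat lay just above the highest Sham rat. Elane over Prtn3, a pair within the primary class, was 1.44 to 2.01 in RE/Ovx rats, 1.24 to 1.84 in NE/Ovx rats and 1.3 to 1.82 in Sham rats.

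The sum of the 4 primary granule genes made up 7.19 to 7.77% of the FPKM of the 10 genes in RE/Ovx rats. It made up 6.97 to 7.96% in NE/Ovx rats and 5.4 to 6.3% in Sham rats. The Sham range lay below both others, which overlapped with each other. The cytosolic share was 71.3 to 73.6% in RE/Ovx rats, 70.7 to 73.5% in NE/Ovx rats and 72.3 to 76.8% in Sham rats, where rat 12 overlapped with both other groups. For the mean of the centred log2 CPM, primary minus later granule genes did not separate the groups. It was 0.01 to 0.12 in RE/Ovx rats, -0.17 to 0.30 in NE/Ovx rats and -0.47 to 0.13 in Sham rats. Primary minus cytosolic genes was -0.02 to 0.18 in RE/Ovx rats, 0.04 to 0.23 in NE/Ovx rats and -0.38 to -0.16 in Sham rats. Here the Sham range lay below both others, and the RE/Ovx and NE/Ovx ranges overlapped.

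**Figure D3:**
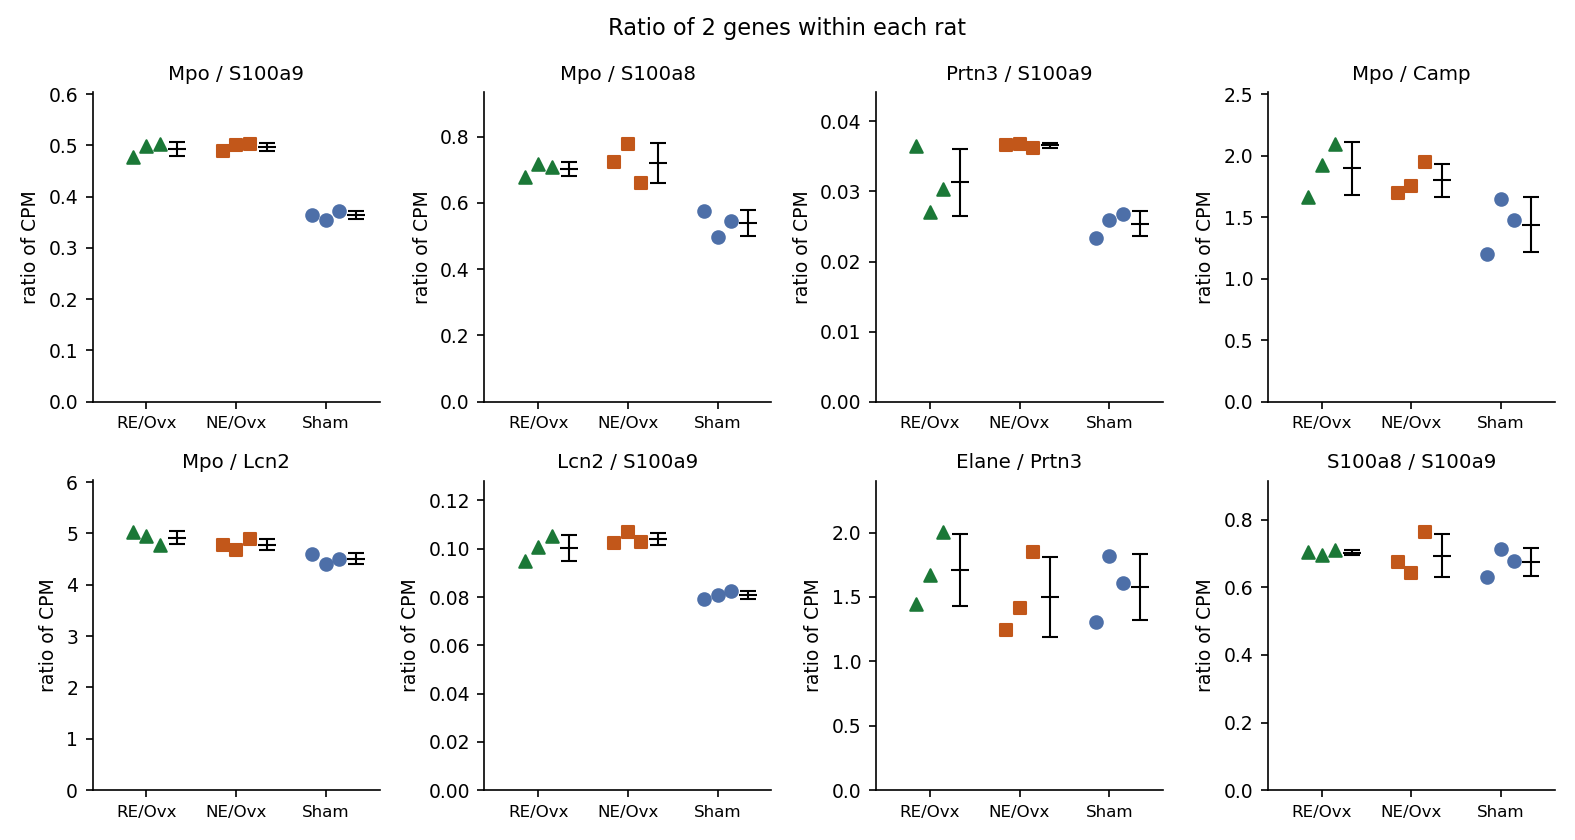
Ratio of the CPM of 2 genes in each rat, in the RE/Ovx, NE/Ovx and Sham groups from left to right, with the mean ± SD of 3 rats as a black bar to the right of each group. Of the 8 pairs drawn, the first 6 span classes and were picked from those higher in all 6 ovariectomized rats than in the Sham rats. Elane over Prtn3 and S100a8 over S100a9 lie within a class and overlap. Most pairs that span classes overlapped and are not drawn. These were 10 of 12 primary over later granule, 5 of 8 primary granule over cytosolic and 4 of 6 later granule over cytosolic pairs.

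Other genes of the same stages were taken from lists. In RE/Ovx relative to Sham tibias, 15 of 22 tested genes of gelatinase granules and mature neutrophils passed as lower, with a median log2 fold change of -0.73, against 3.06% and -0.01 over all genes. Fpr1, a receptor for formyl peptides of bacteria, was at 24.4 ± 4.59 CPM in RE/Ovx tibias, against 53.1 ± 5.66 CPM in Sham tibias (log2FC -1.12, edgeR adjusted p = 0.00645). Cxcr2, a chemokine receptor by which neutrophils leave the marrow in mice, had a log2FC of -0.78 (edgeR adjusted p = 0.0168), and Csf3r, the receptor for the granulocyte growth factor, one of -0.73 (edgeR adjusted p = 0.0231). Alox5ap, which serves leukotriene synthesis, fell by 0.89 on the log2 scale, and Itgam, the alpha chain of the Mac-1 integrin, by 0.69. Padi4, which citrullinates histones, also passed (-0.70).

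Of 14 other specific granule genes, 7 passed as lower in RE/Ovx relative to Sham tibias, against 3.06% of all genes, and the median was -0.55. Mmp8, neutrophil collagenase, was at 324 ± 76.6 CPM in RE/Ovx tibias, against 581 ± 64.1 CPM in Sham tibias (log2FC -0.84, edgeR adjusted p = 0.0229). Lyz2, lysozyme, which macrophages make as well, had a log2FC of -0.92, and Cybb, the catalytic chain of the NADPH oxidase, one of -0.59. Of 5 tested alpha defensins, which are stored in primary granules, 3 passed as lower (Defa10, Defa11 and RatNP-3b) and the median was -1.12. Defa11 was at 16.4 ± 1.13 CPM in RE/Ovx tibias, against 36.6 ± 11.9 CPM in Sham tibias (log2FC -1.16, edgeR adjusted p = 0.0152). Alpha defensins are near-identical copies that may share reads, so single members are uncertain. Defa6, Defa8 and Defa24 were listed at 0 in every rat, as was Cxcr1 of the mature neutrophil list.

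Of 12 other primary granule and promyelocyte genes, 3 passed as lower (Ms4a3, Srgn and Nkg7), against 3.06% of all genes. Only 1 passed as higher (Clec11a), against 5% of all genes, and the median was -0.41. Ms4a3, a membrane protein of granulocyte and monocyte progenitors, was at 107 ± 13.1 CPM in RE/Ovx tibias, against 185 ± 10 CPM in Sham tibias (log2FC -0.79, edgeR adjusted p = 0.00882). Srgn, serglycin, the proteoglycan that holds proteases in granules, had a log2FC of -0.77, and Nkg7, better known from cytotoxic lymphocytes, one of -0.78. Clec11a, a growth factor that bone marrow stromal cells also make in mice, was at 81.4 ± 25.5 CPM in RE/Ovx tibias, against 40.7 ± 9.43 CPM in Sham tibias. Without RE/Ovx rat 5, RE/Ovx rat 8, Sham rat 8 or Sham rat 12, 0 genes of this list passed as higher. In the same order, 0.538%, 0.457%, 3.38% and 2.87% of all genes did. Of 13 tested regulators of granulopoiesis, 4 passed as lower, the C/EBP family transcription factors Cebpb (-0.59), Cebpd (-0.59) and Cebpe (-0.61), and Csf3r, which stands on both lists. Cebpe, which myelocytes need to make specific granules, was at 19.1 ± 2.05 CPM in RE/Ovx tibias, against 29.2 ± 4.77 CPM in Sham tibias (edgeR adjusted p = 0.0276). After adjustment, DESeq2 called 19 mature neutrophil genes, 11 other specific granule genes, 3 alpha defensins, 4 other primary granule genes and 6 regulators as lower. Over all genes DESeq2 called 5.48% as lower. In the same order of lists, limma called 12, 4, 2, 2 and 4 in either direction, against 898 of 14520 genes.

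The list counts from edgeR rested on single rats as well. Without RE/Ovx rat 5, and likewise without RE/Ovx rat 8, 5 mature neutrophil genes, 0 other specific granule genes, 0 alpha defensins, 1 other primary granule gene and 0 regulators passed as lower for RE/Ovx against Sham. In these fits 24 and 36 of all genes passed as lower (0.163% and 0.246%). Without Sham rat 7 the counts were 11, 3, 1, 1 and 1, against 1.91% of all genes, and without Sham rat 8 they were 13, 5, 2, 1 and 2, against 2.37%. Without Sham rat 12 they were 13, 11, 3, 4 and 1, against 2.34% of all genes, and without RE/Ovx rat 3 they were 16, 10, 3, 3 and 2, against 3.7%. Leaving out rats in turn was applied to these lists after the data were seen.

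For NE/Ovx against Sham, 0 genes of these 5 lists passed in edgeR. The medians were -0.16 for the other primary granule genes, -0.40 for the alpha defensins, -0.27 for the other specific granule genes, -0.44 for the mature neutrophil genes and -0.11 for the regulators. At an unadjusted p under 0.05, 2 of 12, 1 of 5, 6 of 14, 13 of 22 and 2 of 13 genes passed as lower in edgeR, against 8.57% of all genes. DESeq2 called 1, 0, 2, 8 and 0 as lower after adjustment, against 2.32% of all genes, and limma called 0 in each list. Fpr1 came nearest (log2FC -0.69, edgeR adjusted p = 0.0505), followed by Trem3, a receptor of myeloid cells (-0.59, edgeR adjusted p = 0.0604). For RE/Ovx against NE/Ovx also 0 genes of these lists passed in edgeR, DESeq2 or limma, and 4, 3, 4, 10 and 4 passed as lower at an unadjusted p under 0.05 in edgeR, against 3.57% of all genes. Their medians were -0.23, -0.69, -0.25, -0.29 and -0.16. Stfa2l1, a stefin of mature neutrophils, was listed at 0 in all RE/Ovx rats, at 18, 4 and 2 reads in NE/Ovx rats 6, 8 and 9 and at 0, 30 and 12 reads in Sham rats 12, 7 and 8.

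**Figure D4:**
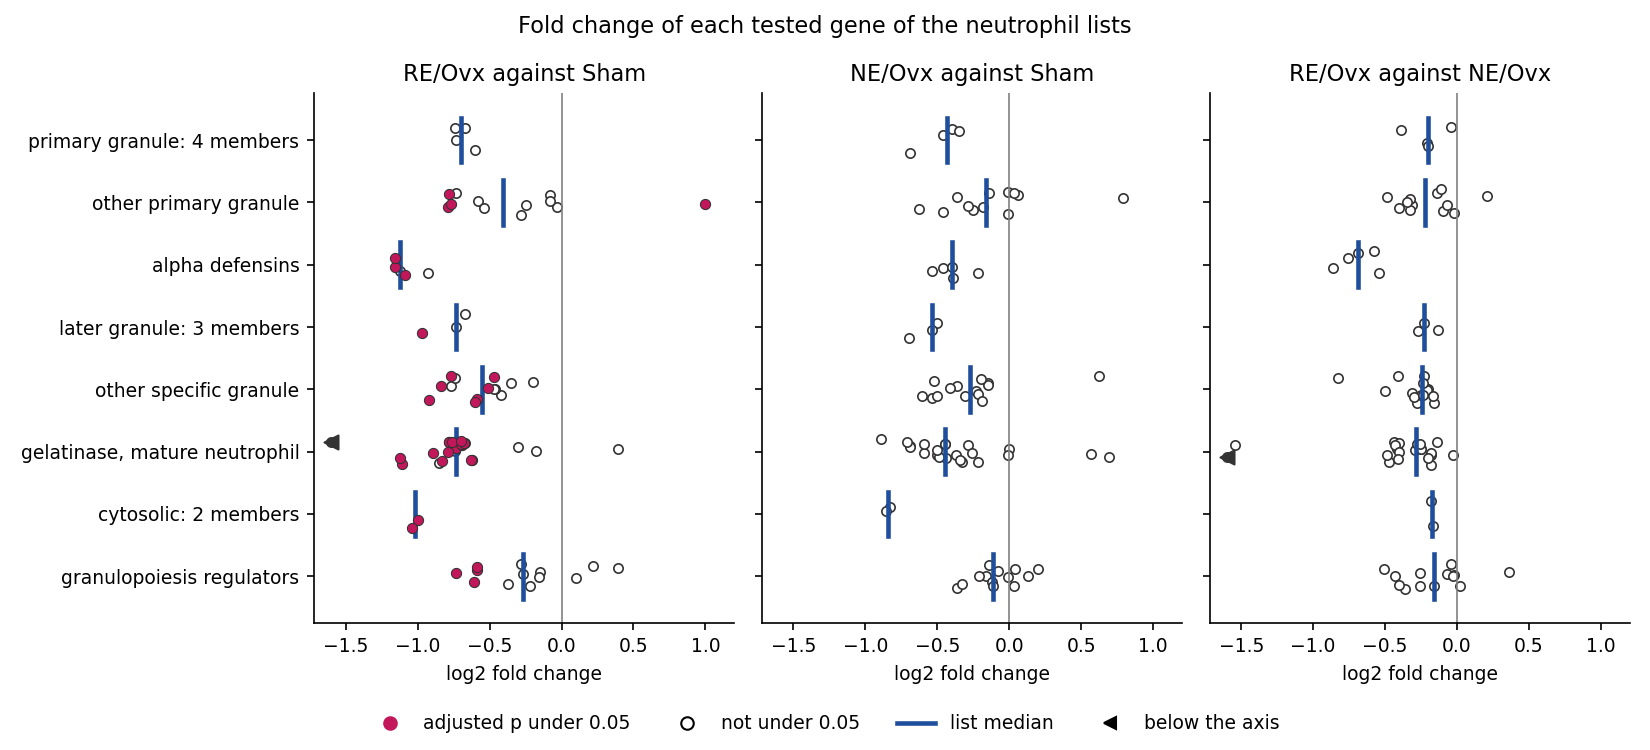
Log2 fold change (horizontal axis) of each tested gene of the 3 classes and of 5 further lists, in 1 panel per comparison, with filled points where the adjusted p was under 0.05 from edgeR and a blue bar at the list median. The triangle marks Stfa2l1, whose value lies below the axis, and the only filled point right of 0 is Clec11a.

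Markers of other cells moved between the groups too. All 8 adipocyte genes and all 10 B cell genes were higher on average in both ovariectomized groups than in the Sham group. The medians for RE/Ovx against Sham were 2.0 for the adipocyte list, with 8 of 8 passing as higher, and 1.21 for the B cell list, with 3 of 10 passing as higher, against 5% of all genes. Without RE/Ovx rat 5, and likewise without RE/Ovx rat 8, 4 adipocyte and 0 B cell genes passed, against 0.538% and 0.457% of all genes as higher. Without Sham rat 7 the B cell count was 0, and without Sham rat 8 it was 7, against 2.18% and 3.38% of all genes. For NE/Ovx against Sham the adipocyte median was 1.73, with 3 of 8 passing as higher, against 1.03% of all genes. That count was 1 without NE/Ovx rat 8, NE/Ovx rat 9 or Sham rat 12, against 0.0477%, 0.0545% and 0.163%. The B cell median was 1.05, with 0 of 10 passing in edgeR after adjustment. At an unadjusted p under 0.05, 8 of 10 were higher in edgeR. There, 2975 of 14520 genes passed in either direction, of which 1244 were lower. DESeq2 called 4 as higher, against 661 of 14520 genes, and limma 0, against 96. The summed level of the B cell genes was 887 to 1087 CPM in RE/Ovx rats, 711 to 1190 CPM in NE/Ovx rats and 209 to 615 CPM in Sham rats, and none of the 10 was at 0. That of the osteoblast genes was 18086 to 28810 CPM in RE/Ovx rats, 16250 to 26652 CPM in NE/Ovx rats and 6827 to 9566 CPM in Sham rats. Their median log2 fold change was 0.85 for RE/Ovx against Sham and 0.58 for NE/Ovx against Sham. In each, 1 of 8 was lower on average and 2 passed as higher, against 5% and 1.03% of all genes. Without 1 rat the counts ran from 2 to 5 and from 0 to 2. All 6 cartilage genes were higher on average, with medians of 1.13 for RE/Ovx against Sham and 0.98 for NE/Ovx against Sham. As higher, 3 and 1 of them passed, against 5% and 1.03% of all genes. Without 1 rat these counts ran from 1 to 4 and from 0 to 2. The share of all genes passing as higher in those fits ran from 0.457 to 8.2% and from 0.0477 to 1.09%. All 11 cell cycle genes were lower on average, with medians of -0.22 for RE/Ovx against Sham and -0.32 for NE/Ovx against Sham, and 0 passed in edgeR. At an unadjusted p under 0.05, 1 and 8 of them passed as lower in edgeR, against 11.1% and 8.57% of all genes. DESeq2 called 1 and 1 as lower, against 5.48% and 2.32% of all genes, and limma 0 and 0. The part of these lists in the lower share of granule gene RNA was not tested.

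The other myeloid lists did not all move with the neutrophil genes. The general leukocyte genes had medians of -0.21 for RE/Ovx against Sham and -0.17 for NE/Ovx against Sham. In the first, 1 of 7 (Lcp1, which bundles actin) passed as lower, against 3.06% of all genes, and 0 without RE/Ovx rat 5, RE/Ovx rat 8 or Sham rat 7. The monocyte and macrophage genes had medians of 0.07 and 0.19. The eosinophil genes, some of which encode granule proteins, had medians of -0.77 and -0.37 with 0 of 6 passing in edgeR, and also 0 of 6 at an unadjusted p under 0.05, with DESeq2 and with limma. Their summed level was 286 to 521 CPM in RE/Ovx rats, 265 to 625 CPM in NE/Ovx rats and 490 to 799 CPM in Sham rats. The megakaryocyte genes had medians of -0.41 and -0.53. For RE/Ovx against Sham, 3 of 9 passed as lower, against 3.06% of all genes. That count was 0 without RE/Ovx rat 5, RE/Ovx rat 8, Sham rat 7 or Sham rat 8, and 4 without either other rat. For NE/Ovx against Sham, 0 of 9 passed in edgeR. There, 7 were lower at an unadjusted p under 0.05 (8.57% of all genes), 4 with DESeq2 (2.32%) and 0 with limma. The erythroid genes had medians of -0.30 and -0.43, with 0 of 11 passing in edgeR in either comparison. At an unadjusted p under 0.05, 1 for RE/Ovx and 5 for NE/Ovx were lower in edgeR, against 11.1% and 8.57% of all genes. DESeq2 called 1 and 0 as lower, against 5.48% and 2.32% of all genes, and limma 0 and 0. Skeletal muscle genes were still present after the bones had been cleared and summed to 6311 to 9428 CPM in RE/Ovx rats, 13302 to 16895 CPM in NE/Ovx rats and 5023 to 15172 CPM in Sham rats, and their part in the comparisons was not tested.

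**Figure D5:**
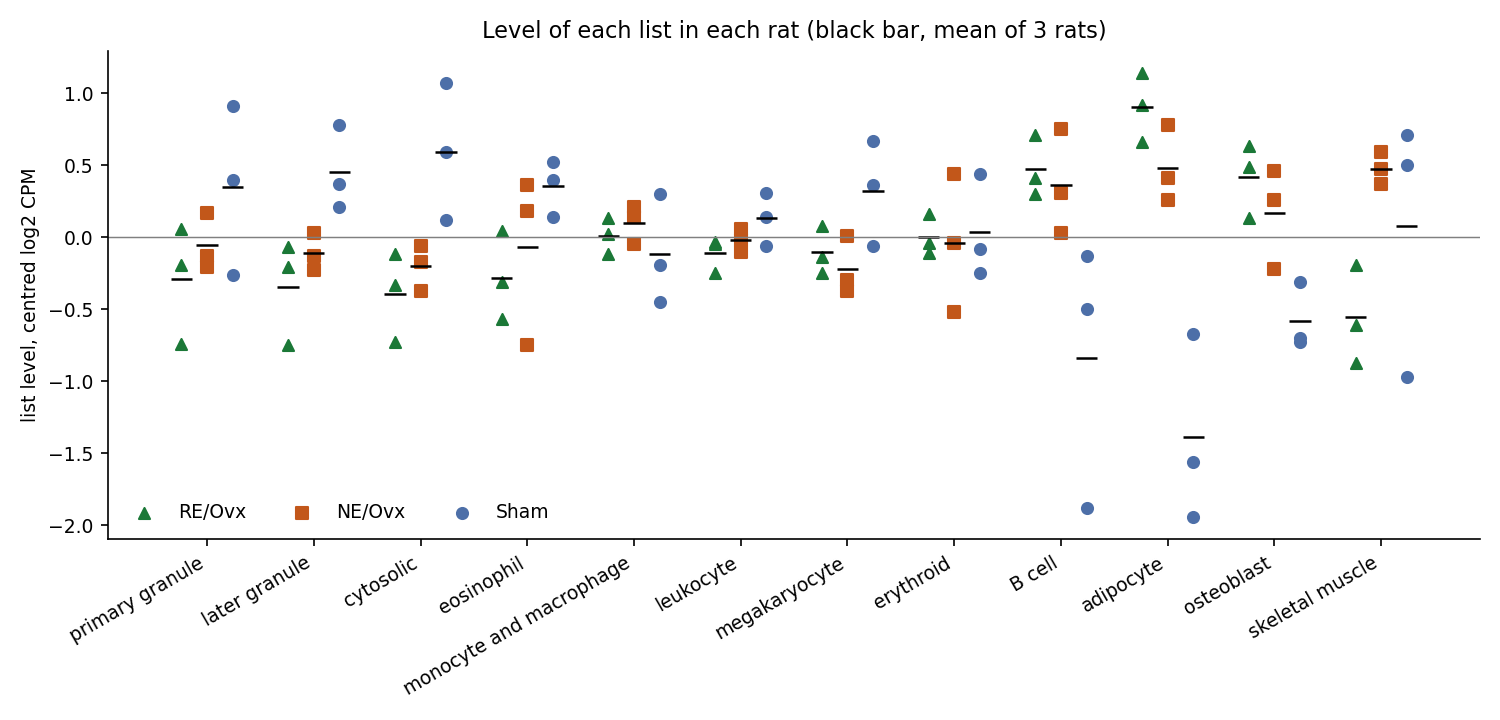
Level of 12 lists in each rat, as the mean of the log2 CPM of their genes centred on the 9 rats (vertical axis), with the RE/Ovx, NE/Ovx and Sham groups from left to right within each list and a black bar at the mean of 3 rats. The later granule and cytosolic lists are lower in all 6 ovariectomized rats than in the Sham rats, and the B cell and adipocyte lists are higher.

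The genes whose levels ran most like each class over the 9 rats were ranked among 12046 tested genes outside the 10. The points share their groups, their libraries and their depth, and the ranking is a description. Spcs2, a signal peptidase subunit, led for the primary granule genes (Pearson r = 0.992), followed by Gnai2, Mgst1, Tkt, Spi1 and Eno1 (0.966). Spi1 encodes PU.1, a transcription factor of myeloid cells, and was at 48.7 ± 6.71 CPM in RE/Ovx tibias and 54.4 ± 2.14 CPM in NE/Ovx tibias, against 58.8 ± 8.32 CPM in Sham tibias. The genes most like the later granule genes included Cybb (0.986), Hp, Lcp1, Mmp8 and Prr13 (0.974). Cybb, Hp and Mmp8 are themselves neutrophil genes of the lists above, since in human neutrophils Hp, haptoglobin, and Mmp8 are stored in specific granules and Cybb sits in their membrane. Prdx5, a peroxiredoxin, led for the cytosolic genes (0.979), followed by Dstn, Cox5a, Cst7, Anxa1 and Cap1 (0.969). Anxa1, annexin A1, which is abundant in neutrophil cytosol, was at 668 ± 104 CPM in RE/Ovx tibias and 787 ± 40.1 CPM in NE/Ovx tibias, against 1233 ± 173 CPM in Sham tibias (log2FC -0.88, edgeR adjusted p = 0.0128 for RE/Ovx against Sham, and -0.65, edgeR adjusted p = 0.0596 for NE/Ovx against Sham).

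Because the genes moved together, the 250 bases before their starts were read from RefSeq promoter windows of the GRCr8 assembly, which held 8 of the 10 genes (all but Elane and S100a8). Both strands were searched for TTNNGNAA, a core of C/EBP sites, for GAGGAA, a core of PU.1 sites, and for TATAAA, the TATA box, none of which overlapped another in these windows. TTNNGNAA was present in 4 of the 8 (Mpo, Lcn2, Ngp and S100a9), against 37.2% of all 33469 windows of that length. GAGGAA was present in 4 of the 8 (Mpo, Prtn3, Ctsg and S100a9), against 23.3% of all windows, and TATAAA in 2 (Ctsg and S100a9), against 12.9%. The windows of 4 genes are shown to set the classes beside each other, 1 primary granule gene, Camp, which passed for RE/Ovx against Sham in every fit without 1 rat, Ngp, which held the most matches, and 1 cytosolic gene, with the matches in capitals.
Mpo (GRCr8, chr10:73092152-73092401, plus strand): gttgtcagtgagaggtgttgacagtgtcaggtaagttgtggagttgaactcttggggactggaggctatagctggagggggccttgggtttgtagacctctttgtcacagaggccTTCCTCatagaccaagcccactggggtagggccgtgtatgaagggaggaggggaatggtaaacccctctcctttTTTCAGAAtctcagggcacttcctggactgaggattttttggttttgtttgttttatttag
Camp (GRCr8, chr8:118721999-118722248, minus strand): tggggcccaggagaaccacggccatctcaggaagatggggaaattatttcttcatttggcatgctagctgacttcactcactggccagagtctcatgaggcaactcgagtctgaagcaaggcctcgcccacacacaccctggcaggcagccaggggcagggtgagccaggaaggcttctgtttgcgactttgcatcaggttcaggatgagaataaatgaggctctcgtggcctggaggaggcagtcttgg
Ngp (GRCr8, chr8:119272355-119272604, plus strand): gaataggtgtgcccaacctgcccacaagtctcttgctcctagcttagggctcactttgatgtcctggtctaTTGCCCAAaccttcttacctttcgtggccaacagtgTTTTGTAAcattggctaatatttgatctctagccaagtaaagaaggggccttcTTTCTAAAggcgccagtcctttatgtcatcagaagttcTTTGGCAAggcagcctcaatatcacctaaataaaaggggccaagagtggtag
S100a9 (GRCr8, chr2:178490623-178490872, minus strand): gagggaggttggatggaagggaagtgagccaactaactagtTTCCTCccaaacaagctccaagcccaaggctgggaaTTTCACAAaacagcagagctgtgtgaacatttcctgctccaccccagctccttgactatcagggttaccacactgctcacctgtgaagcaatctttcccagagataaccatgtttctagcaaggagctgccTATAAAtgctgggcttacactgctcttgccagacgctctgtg
Ngp held 4 matches to TTNNGNAA and Camp none to any of the 3 motifs. Both genes were lower in all RE/Ovx rats than in all Sham rats, but of the 2 only Camp passed the adjusted threshold there. The part of these motifs in the levels was not tested. In S100a9 the match to TATAAA began 42 bases before the start. A match describes letters and not binding, and the absence of one says only that these letters are not in this window.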

How the data were processed

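For each left tibia the authors deposited raw counts and FPKM values by gene. Per the submitters' processing notes, the build was Rnor_6.0 and the tools were Trimmomatic, HISAT2, StringTie, Bowtie2 and DESeq (no versions). Libraries were stranded and free of ribosomal RNA. No source used here says if strand entered the counting, so overlapping genes may share reads.

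Deposited counts were tested in R 4.3.3 with edgeR 4.0.16 (TMM, quasi-likelihood, 1 fit of all 9 libraries with group as the only term, its filter on low counts leaving 14520 of 18423 genes with a count), with Benjamini-Hochberg adjustment over all tested genes. CPM uses the TMM library sizes, and centred log2 CPM a prior count of 2. P-values measure the spread between rats, and NE/Ovx and RE/Ovx share their Sham rats. Alternatives were DESeq2 1.42.0, median-of-ratios factors, library totals, every gene with a count, at least 10 counts in each library, the 2 groups alone, limma 3.58.1 on log2(FPKM + 1), and leaving out each rat. Scripts were tested on simulated data. Summaries used Python 3.11.15 with pandas 2.3.3.

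The members and lists were chosen with earlier results of these data known. Named were all 10 genes, from each other list up to 3 genes with the smallest p for NE/Ovx against Sham and genes past the adjusted threshold, and the 6 genes most like each class (average log2 CPM of at least 2). Not every gene so chosen is printed. Promoter windows are from RefSeq (GRCr8), whose coordinates differ from those of Rnor_6.0. Some listed genes were not analysed here.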

Additional observations from a re-analysis of the deposited data

How the results depend on the processing

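Of the 351 values of single genes under the alternatives, 321 kept their direction and their side of the threshold, 12 passed only under the alternative, 12 no longer passed and 6 changed sign. For RE/Ovx against NE/Ovx, where 0 members passed under every alternative, leaving out 1 rat turned 3 genes positive in some fits. Over these fits Elane ranged from -0.48 to 0.02, Ctsg from -0.26 to 0.20 and Ngp from -0.31 to 0.11. Elane reached 0.01 without NE/Ovx rat 9 and 0.02 without RE/Ovx rat 5, Ctsg 0.20 and 0.16 without the same rats, and Ngp 0.04 without NE/Ovx rat 6 and 0.11 without RE/Ovx rat 5.

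The number of members that passed changed with the test. For NE/Ovx against Sham it was 3 with DESeq2 (Camp, S100a8 and S100a9), 1 with every gene with a count and 1 with the 2 groups alone (Camp in both). For RE/Ovx against Sham it was 7 with DESeq2, 1 with the 2 groups alone, 1 with limma, and from 1 to 6 when 1 rat was left out. Over all genes, 178 passed for NE/Ovx against Sham, 998 with DESeq2, 112 with limma and 9 to 181 when 1 rat was left out. For RE/Ovx against NE/Ovx 0 passed (767 at an unadjusted p under 0.05), 5 with DESeq2 and 1 with the 2 groups alone. For RE/Ovx against Sham 1171 passed, 1964 with DESeq2, 559 with the 2 groups alone and 103 to 1749 when 1 rat was left out. The 1171 were 726 higher and 445 lower, against 891 and 289 with library totals and 652 and 246 with limma. The cause of these differences was not tested, except that the 2 groups alone and fits without 1 rat use fewer samples.

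The class medians kept their sign under every alternative. When 1 rat was left out, the primary granule median ran from -0.69 to -0.14 for NE/Ovx against Sham, from -0.98 to -0.36 for RE/Ovx against Sham and from -0.42 to -0.02 for RE/Ovx against NE/Ovx. No paired analysis was possible because the groups share only the rat number 8, which names different animals. Without 1 rat, the call of S100a8 for RE/Ovx against Sham was lost in 5 of 6 fits and that of S100a9 in 3 of 6.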
